A study of Mus musculus with 2 samples.

Results

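The RNAs of the mouse mitochondrial genome, and 4 nuclear pseudogenes that copy parts of it, were measured in total RNA of the adrenal gland. Members were all 37 annotated genes whose symbol begins with mt- and the pseudogenes Gm28661, Gm10925, Gm28437 and Gm28439, chosen by name and not by level. They are 41 of 55536 annotated genes: 2 rRNAs, 22 tRNAs, 13 mRNAs and the 4 copies. The animals were male B6CASTF1/J mice, the first generation of a cross between a classical inbred strain and one derived from wild mice, aged 25 days, with no treatment named in the labels. The single group held 2 libraries, called replicate 1 and replicate 2 as labelled, each from 300 ng of RNA with ribosomal RNA reduced and ERCC spike-in transcripts added. The sample labels name 2 different animals, while the library labels repeat 1 animal and both samples carry the same donor entry, so the spread between these samples may be technical. The labels have no separate entry for the strain of the mothers, and so of the mitochondrial genome, beyond the cross name B6CASTF1/J, in which B6 stands first.

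As background, the mitochondrial genome is a small circle that is transcribed on both strands into long precursors. In these the tRNAs lie between most of the other genes, and their excision releases the rRNAs and mRNAs. The mRNAs encode core subunits of the respiratory chain and of ATP synthase, and the rRNAs build the ribosome that translates them. In the adrenal cortex, mitochondria also house the first and last steps of corticosteroid synthesis. Stretches of mitochondrial DNA have been copied into nuclear chromosomes many times during evolution, and a recent copy can be identical to its source.

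The 4 copies are annotated as unprocessed pseudogenes on the minus strand of chromosome 1 (mm10), inside the interval chr1:24611535-24616197. That interval of 4663 bases holds 7 annotated pseudogenes in the order of mitochondrial bases 6381 to 11042, a stretch of 4662 bases. Each of the 4 copies is identical, base for base, to the annotated transcript of 1 mitochondrial mRNA over its whole length. Gm28661 matches bases 1 to 681 of the 684 of mt-Co2, and Gm10925 matches bases 1 to 678 of the 681 of mt-Atp6. Gm28437 matches bases 1 to 783 of the 784 of mt-Co3, and Gm28439 matches bases 1 to 876 of the 1378 of mt-Nd4. The ends of each pair in the GENCODE M21 transcripts are printed because they hold the only bases in which gene and copy differ. Capitals mark the bases that are in the gene and not in its copy, and for mt-Nd4 the first 30 of the 502 such bases are shown.
mt-Co2: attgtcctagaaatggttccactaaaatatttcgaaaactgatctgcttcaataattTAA
Gm28661: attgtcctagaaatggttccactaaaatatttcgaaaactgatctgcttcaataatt
mt-Atp6: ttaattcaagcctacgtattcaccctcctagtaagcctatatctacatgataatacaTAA
Gm10925: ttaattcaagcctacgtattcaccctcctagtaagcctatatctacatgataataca
mt-Co3: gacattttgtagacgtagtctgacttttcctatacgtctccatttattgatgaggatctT
Gm28437: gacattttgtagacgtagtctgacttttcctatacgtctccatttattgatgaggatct
mt-Nd4: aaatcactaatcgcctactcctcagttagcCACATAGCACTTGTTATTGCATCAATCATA
Gm28439: aaatcactaatcgcctactcctcagttagc

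For 3 of the 4 pairs, the annotated difference is the stop codon or the single base that begins it. The amount of sequence that could place a read was measured as the share of a transcript's 31-base words found in no other gene of the annotation. None of the words of Gm28661, Gm10925, Gm28437 or Gm28439 was private, and none of those of mt-Co2 was either. The private share was 0.461% for mt-Atp6 and 0.133% for mt-Co3, against 37.2% for mt-Nd4 and 100% for mt-Rnr1 and mt-Nd1. Of the other genes with a copy in the same interval, mt-Nd3 had 1.89%, mt-Nd4l 1.12% and mt-Co1 36.1% private words. A second kind of sharing lies within the mitochondrial genome, where mt-Atp8 and mt-Atp6 overlap by 43 bases and mt-Nd4l and mt-Nd4 by 7. The end of mt-Atp8 and the start of mt-Atp6 are printed with the shared bases in capitals.
mt-Atp8: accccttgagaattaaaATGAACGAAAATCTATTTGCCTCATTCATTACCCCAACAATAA
mt-Atp6: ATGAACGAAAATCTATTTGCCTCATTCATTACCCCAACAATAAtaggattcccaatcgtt

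The libraries held 35283841 and 35156690 expected counts, of which spike-ins took 0.839% and 0.915%. The adrenal markers were present in both libraries, with the 6 cortex genes summing to 12248 and 6742 TPM (a level scaled for transcript length and for the library's total) and the 5 chromaffin genes to 1596 and 1084 TPM. Replicate 2 also held liver markers, with all 6 summing to 18863 TPM against 25.8 in replicate 1, led by Alb, the main plasma protein of hepatocytes, at 11949 against 16.3 TPM. Replicate 1 held skeletal muscle markers, with 6 genes summing to 1141 TPM against 1.67 in replicate 2, led by Acta1, skeletal muscle actin, at 425.6 against 0.07 TPM. The 5 brown adipocyte markers summed to 1183 and 824 TPM, led by Cox8b, a muscle and brown fat subunit of complex IV, at 542 and 373 TPM. Within this list Elovl3, at 6.33 and 35.8 TPM, and Ppara, at 13.75 and 22.13 TPM, went the other way. The 5 erythroid markers summed to 5709 and 3722 TPM, led by Hba-a1, an alpha globin, at 2071 and 1299.6 TPM, while Alas2 was at 26.65 and 28.38 TPM. Of the cortex list Hsd3b1, a steroid dehydrogenase, was highest at 3405 and 2015 TPM, and of the chromaffin list Chgb, a granule protein, at 571 and 409 TPM. In bulk RNA, fewer cells of a type and less RNA per cell cannot be told apart. The part of this other tissue in the mitochondrial values was not tested, and levels are given for both libraries.

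Mitochondrially encoded RNA made up 16.2% of TPM in replicate 1 and 16.8% in replicate 2 (mean 16.5% ± 0.432, SD, n = 2). By expected counts the share was 17.1% (95% exact Clopper-Pearson interval 17.12 to 17.15, counting error only) and 17.6% (17.63 to 17.65). The rRNAs held 11.0% and 11.2% of TPM, the mRNAs 5.21% and 5.62%, and the 4 copies 2.99% and 2.88%. Of the 37 mitochondrially encoded genes, 15 were detected, meaning 1 TPM or more in each library: both rRNAs and all 13 mRNAs. Of the 4 copies 3 were listed at 1 TPM or more in each library, and Gm28439 was listed at 0 in both. None of the 4 copies had private words, so their share and listed levels are a division of reads that match their genes as well. Whether the copies were transcribed was not tested.

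The rRNAs were the most abundant members. mt-Rnr1, the RNA of the small mitochondrial ribosomal subunit (mm10, chromosome M, bases 70 to 1024), was at 52154 TPM in replicate 1 and 52595 in replicate 2. mt-Rnr2, the RNA of the large subunit (bases 1094 to 2675), was at 57903 and 59514 TPM. Per length the large rRNA was 1.11 and 1.13 times the small one. In a second quantification, made by the authors from the same reads, it was 1.327 and 1.325 times the small one. The labels name a step that reduces ribosomal RNA, and its effect on each rRNA was not tested. Together the rRNAs exceeded the summed mRNAs by 1.04 ± 0.058 on the log2 scale of TPM (SD, n = 2), a 2.05-fold difference, with 1.08 in replicate 1 and 1.00 in replicate 2. Adding the copies' TPM to the mRNAs lowered this difference to 0.41 ± 0.018 on the same scale.

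Among the 13 mRNAs, levels ran from 11469.95 TPM down to 82.3 TPM. In complex I, the NADH dehydrogenase that feeds electrons into the chain, mt-Nd1 was at 4940.2 and 5035 TPM, mt-Nd4 at 4030.3 and 4361, and mt-Nd4l at 3776 and 4454. The other plus-strand genes of complex I were lower, with mt-Nd2 at 3292 and 3569.9 TPM, mt-Nd3 at 2769 and 2742, and mt-Nd5 at 2217 and 2602. mt-Nd6, the only mRNA gene annotated on the minus strand (bases 13552 to 14070), was at 525 and 560.1 TPM. The median of the other 12 mRNAs was 7.44 times the level of mt-Nd6 in replicate 1 and 7.87 times in replicate 2. Whether the authors' counting used strand is not given in the sources used here, so reads of transcripts antisense to mt-Nd6 cannot be told apart from its own. In complex III, which passes electrons to cytochrome c, mt-Cytb was at 7003 and 7224 TPM.

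In complex IV, the cytochrome c oxidase that reduces oxygen, the listed levels of the 3 subunits spread widest. mt-Co1, the catalytic subunit, was the highest mRNA at 11105 and 11469.95 TPM, and mt-Co3 was at 2297 and 2773 TPM. mt-Co2, the subunit that receives electrons from cytochrome c, was the lowest mRNA at 220.3 and 82.3 TPM. Its libraries differed by a larger fold than those of the other 12 mRNAs. In complex V, the ATP synthase, mt-Atp6 was at 4965 and 5688 TPM and mt-Atp8 at 4979.7 and 5621 TPM, and the 2 overlapping genes were not separated by their spread. In order of mean TPM, the ranges of neighbours over the libraries did not overlap for mt-Co1 above mt-Cytb and mt-Cytb above mt-Atp6. They overlapped among mt-Atp6, mt-Atp8 and mt-Nd1, between mt-Nd4 and mt-Nd4l, and among mt-Nd3, mt-Co3 and mt-Nd5. The fold from the highest to the lowest of the 12 plus-strand mRNAs was 50.4 in replicate 1 and 139 in replicate 2.

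**Figure D1:**
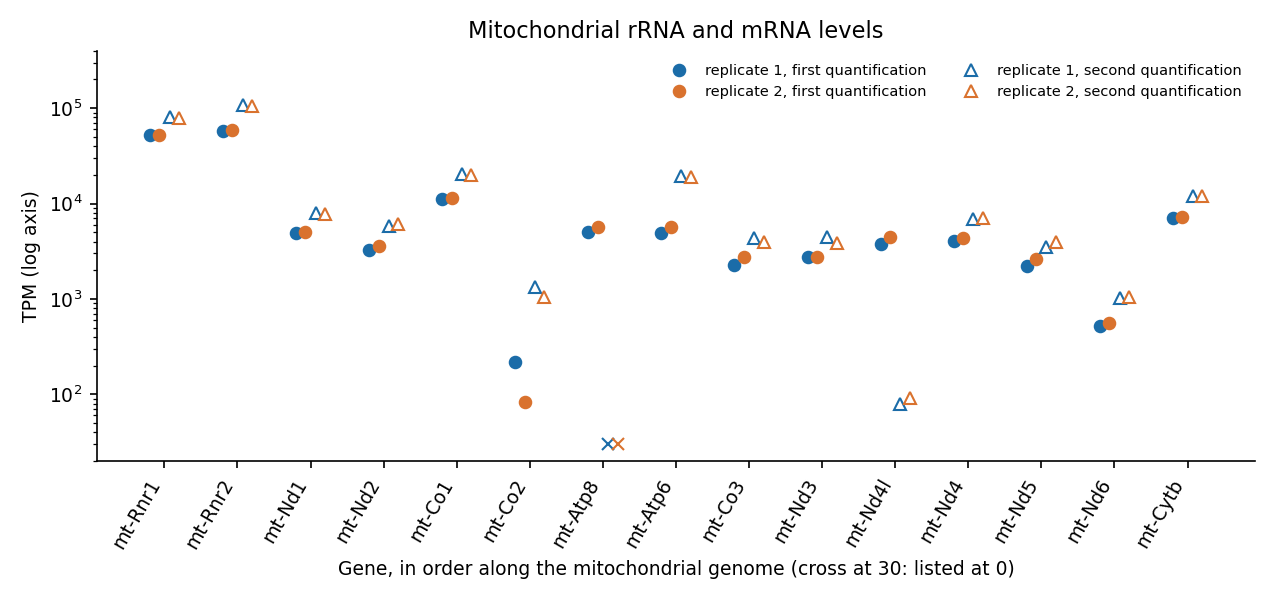
TPM on a log axis of the 2 rRNAs and 13 mRNAs in genome order, with circles for the first quantification, triangles for the second, blue for replicate 1 and orange for replicate 2; a cross marks a gene listed at 0. The rRNAs are highest, with mt-Rnr1 at 52154 and 52595 TPM, mt-Co2 falls to 220.3 and 82.3 TPM in the first quantification, and mt-Nd4l and mt-Atp8 fall in the second.

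None of the 22 tRNA genes had a count in any of the 4 estimates, which were 2 libraries by 2 quantifications. The tRNA genes, 14 on the plus strand and 8 on the minus strand, are 59 to 75 bases long. The longest, mt-Tl1, a leucine tRNA that lies directly after mt-Rnr2, is printed whole to show its size.
mt-Tl1: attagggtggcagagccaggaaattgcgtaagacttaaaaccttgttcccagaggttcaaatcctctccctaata
The first quantification subtracts 99 bases from each transcript's length to obtain the effective length, the number of places where a fragment can start. All 22 tRNAs, among 2398 annotated genes, were thereby left with an effective length of 0. In the second quantification their effective lengths were 21.9 to 25.5 bases, and they were listed at 0 there too. An entry of 0 in the first quantification is therefore not a measured level, and why the tRNAs were at 0 in the second was not tested.

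The copies stood among the highest mRNA-like entries of the first quantification. Gm28661, the copy of mt-Co2 (chr1:24614885-24615565), was listed at 12597 and 12686 TPM, above mt-Co1, the highest mitochondrial mRNA, in both libraries. Gm10925, the copy of mt-Atp6 (chr1:24613974-24614651), was at 9762 and 9246 TPM, and Gm28437, the copy of mt-Co3 (chr1:24613189-24613971), at 7555 and 6911 TPM. The log2 ratio of copy to gene in TPM was 5.84 and 7.27 for Gm28661 over mt-Co2, 0.98 and 0.70 for Gm10925 over mt-Atp6, and 1.72 and 1.32 for Gm28437 over mt-Co3. Gm28439, the copy of the first part of mt-Nd4 (chr1:24611535-24612410), was listed at 0 while mt-Nd4 was listed at 4030.3 and 4361 TPM. Among the 4 member pairs, mt-Nd4 is the partner with the most private words. Gm28438, the copy of mt-Nd3, was also at 0, with 1.89% private words in the gene and 0.952% in the copy. Gm29216, the copy of part of mt-Co1, held 59345 and 56404 counts, with 36.1% private words in the gene and 2.81% in the copy. The part of private words in the division of reads was not tested.

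The second quantification, made by the authors from the reads of the same libraries, divided the counts of the pairs differently. For mt-Atp6 and Gm10925 the first quantification gave the copy 66.2% and 61.8% of the pair's counts, and the second gave it 5.96% and 1.80%. In TPM the log2 ratio of Gm10925 to mt-Atp6 therefore went from 0.84 ± 0.19 to -4.86 ± 1.27 (SD, n = 2), a reversal in both libraries. For mt-Co2 and Gm28661 the copy held 98.3% and 99.4% in the first and 94.4% and 95.3% in the second. For mt-Co3 and Gm28437 it held 76.7% and 71.3% in the first and 72.9% and 74.3% in the second. For mt-Nd4 and Gm28439 it held 0% in the first and 1.39% and 1.07% in the second. The sums of the pairs differed between quantifications as well, with 291795 and 293920.0 counts for mt-Atp6 and Gm10925 in the first and 180925 and 176373 in the second.

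**Figure D2:**
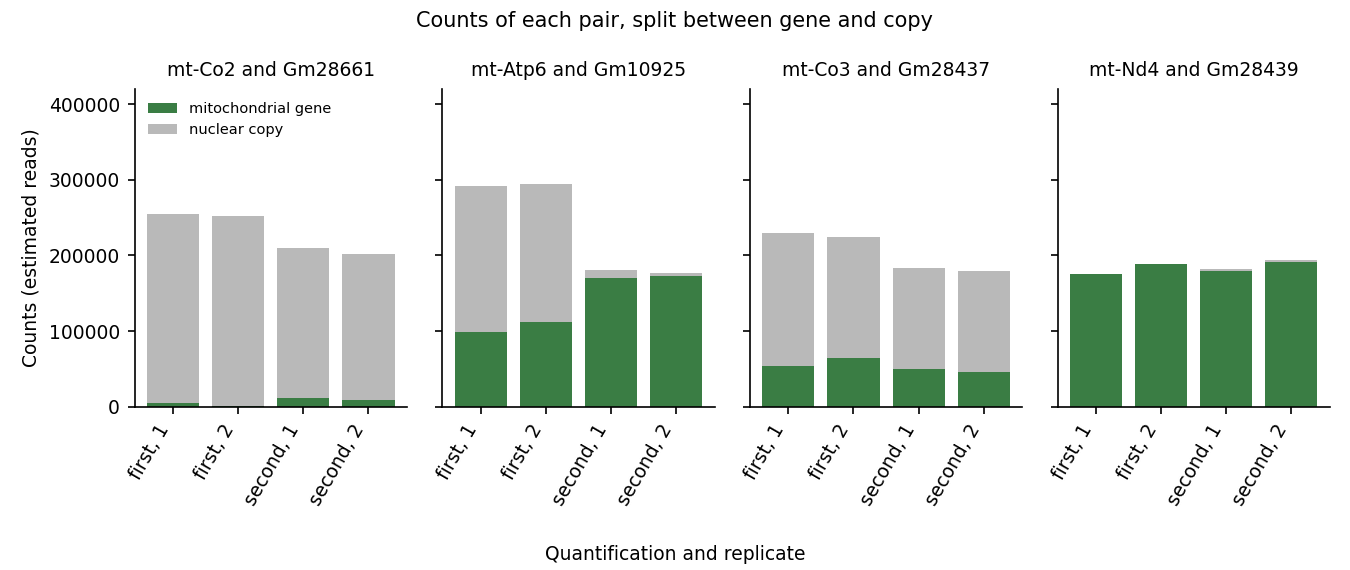
Stacked bars of counts for each gene (green) and its identical nuclear copy (grey), with 1 panel a pair and 1 bar for each quantification and replicate. The grey part changes from 66.2% to 5.96% of the pair for mt-Atp6 in replicate 1, and stays above 94% for mt-Co2 in all 4 bars.

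The deposited tables hold a measure of how well these counts were determined. Beside the expected count, the first quantification lists for each gene a posterior mean count and its SD, which describe the range of divisions of the reads that the authors' model allowed. For mt-Co2 the expected counts were 4403 and 1634, while the posterior means were 33608 ± 5348 and 31791 ± 5551 (posterior SD within a library). The expected counts stood at -5.46 and -5.43 posterior SDs from the posterior means, which were 7.63 and 19.5 times as large. By posterior means the mt-Co2 values of the libraries differed by less than either posterior SD, whereas the expected counts differed more than 2-fold.

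mt-Co3 showed the same direction, with expected counts of 53749.7 and 64437 against posterior means of 104706 ± 5802 and 105392 ± 5603. For mt-Atp6 the expected counts were 98708 and 112313 against 114394 ± 5670.1 and 123549.8 ± 4547. In these 3 pairs gene and copy had nearly the same posterior SD, and the pair's sum of posterior means differed from its sum of expected counts by less than 1 count. mt-Rnr1, mt-Nd1, mt-Nd5, mt-Nd6 and mt-Cytb, by contrast, had posterior SDs of 0.03 or less. By posterior means, the share of the pair's counts on the copy was 86.8% and 87.4% for Gm28661, 60.8% and 58.0% for Gm10925, and 54.5% and 53.1% for Gm28437.

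Within a quantification, the summed counts of a pair do not depend on how its reads were divided. Levels were also formed as gene plus copy, over all 7 pseudogenes of the chromosome 1 interval; this sum was chosen after the values were seen. The 3 pseudogenes outside the member list were Gm29216 (identical to mt-Co1 bases 1054 to 1545 at 486 of 492 bases), Gm10222 (identical to mt-Nd4l bases 1 to 294) and Gm28438 (344 of 345 bases of mt-Nd3). Their listed levels were 4420.3 and 4231 TPM for Gm29216, 794 and 237 TPM for Gm10222, and 0 in both libraries for Gm28438. Summed TPM were 15526 and 15701 for mt-Co1, 14727 and 14934 for mt-Atp6, 12817 and 12768 for mt-Co2, and 9851 and 9684 for mt-Co3. Unlike summed counts, a sum of TPM depends on the division of reads where gene and copy differ in length. Gm29216 has 492 bases and mt-Co1 1545, so the mt-Co1 sum depends on the division. The mt-Nd4 sum does as well, since Gm28439 has 876 bases and mt-Nd4 1378. Ranks, means and folds that include either sum do so too. mt-Co2 thereby moved from rank 13 to rank 3 of the 13 mRNAs, and the SD of its libraries fell from 97.6 on a mean of 151 TPM to 34.5 on a mean of 12793 TPM.

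With copies added, all 3 complex IV mRNAs and mt-Atp6 stood above mt-Cytb at 7113 ± 156 TPM (SD, n = 2) with no overlap of the libraries. The mean TPM per gene was 12725 ± 9.78 for complex IV, against 4658 ± 166 for the genes alone, and 10065 ± 300.2 against 5313 ± 483 for complex V. Complex I stayed at 3279 ± 123 against 3205 ± 179 TPM. The fold from the highest to the lowest plus-strand mRNA narrowed to 7.003 and 6.03, and the median of the plus-strand mRNAs over mt-Nd6 became 9.45 and 9.51. The excess of rRNA over mRNA fell to 0.33 ± 0.0071 on the log2 scale. The complex IV mean, the fold and this excess include the mt-Co1 sum, which depends on the division of its reads. The complex I mean and this excess include the mt-Nd4 sum, which does so too. The share of these sums that came from nuclear transcripts was not measured, since identical reads carry no mark of their origin.

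**Figure D3:**
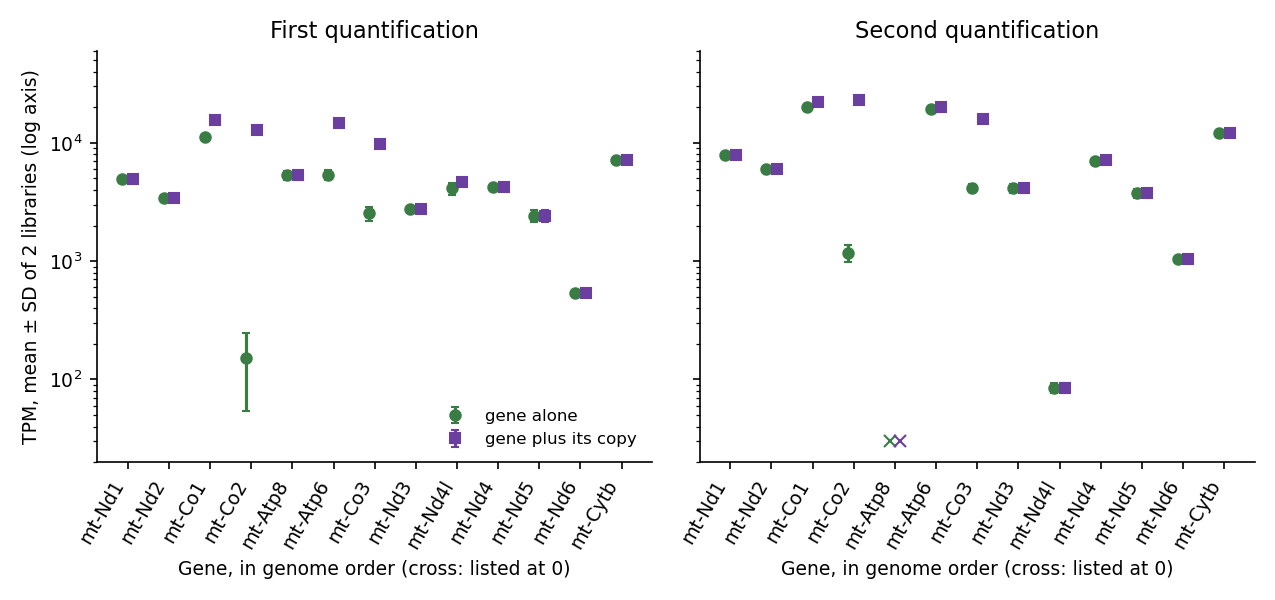
Mean TPM ± SD of the 2 libraries on a log axis for the 13 mRNAs in genome order, in the first (left) and second (right) quantification, for the gene alone (green circles) and the gene plus its chromosome 1 copy (purple squares). In both panels mt-Co2 moves from near the bottom to within the 3 highest once Gm28661 is added, and mt-Nd4l and mt-Atp8 in the right panel do not move.

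In the second quantification mt-Co2 plus Gm28661 reached 23665 and 22443 TPM, rank 1 of the 13 mRNAs, followed by mt-Co1 at 22375 and 21877 TPM with its copy. The 4 highest sums were the same genes in both quantifications, mt-Co1, mt-Co2, mt-Atp6 and mt-Co3. The largest differences between quantifications were those of 2 short mRNAs, and adding copies did not lessen them. mt-Atp8, of 204 bases, had 17862 and 20023 expected counts with a posterior SD of 0 in the first and 0 counts in the second. mt-Nd4l, of 297 bases, had 25544 and 29915 counts in the first and 137 and 159 in the second. Their effective lengths were 105 and 198 bases in the first quantification and 46.8 and 68.6 bases in the second (replicate 1). The cause of the difference was not tested.

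Across the 14 mitochondrially encoded genes listed above 0 in both quantifications, the median log2 ratio of the second to the first was 0.82 in replicate 1 and 0.72 in replicate 2. The same median over nuclear protein-coding genes was 0.78 and 0.73. mt-Cytb was close to it at 0.79 and 0.73, while mt-Atp6 was at 1.95 and 1.76, mt-Co2 at 2.58 and 3.66, and mt-Nd4l at -5.57 and -5.62. By mitochondrially encoded share, the second quantification gave 27.5% and 27.1% of TPM but 17.6% and 18.2% of counts.

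Each gene's counts in replicate 2 were set against those in replicate 1 with a two-sided exact binomial test on rounded expected counts, TMM-scaled library sizes and Benjamini-Hochberg adjustment over 19801 genes. The test has 1 library a side, so it takes in counting error alone and sets 2 libraries, not 2 conditions, against each other. It leaves out the uncertainty in the division of reads between gene and copy. For mt-Co2, mt-Atp6, mt-Co3 and their copies the posterior SDs were 4547 to 5802 counts, so calls for these members depend on that division. At an adjusted p under 0.05, 20.7% of all tested genes were higher and 18.4% lower in replicate 2. Of the 41 members 18 had enough counts to be tested, 17 were higher and 1 was lower. The higher members were both rRNAs, 12 mRNAs and the copies Gm28661, Gm10925 and Gm28437. Their log2 ratios were small, from 0.10 for Gm28437 to 0.50 for mt-Co3, and none reached 1.5-fold. mt-Rnr1 was at 0.24 and mt-Rnr2 at 0.27, while the median of all tested genes was -0.0047. The lower member was mt-Co2, at -1.19 (95% exact interval -1.27 to -1.11, counting error only). Its expected counts of 4403 and 1634 were below their posterior SDs of 5348 and 5551. In the second quantification the mt-Co2 ratio was -0.07, from 11781 and 9463 estimated counts.

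The directions of these small ratios depended on the scaling. With library sizes taken as total counts, 13 members were higher and 3 lower, against 12.7% and 43% of all genes, whose median moved to -0.24. With spike-in totals 5 members were higher and 11 lower, against 10.8% and 53.3%, with a median of -0.36. With nuclear protein-coding totals 9 were higher and 6 lower, against 12.2% and 46.3%, with a median of -0.27. mt-Rnr1 stood at 0.24, 0.01, -0.12 and -0.03 under TMM, total counts, spike-in totals and nuclear protein-coding totals. Its counts were 1525128 and 1527326, and at such depth even very small ratios pass the test. The calls of members and of all genes therefore partly follow count depth. mt-Co3, mt-Nd4l, mt-Nd5, mt-Atp6 and mt-Atp8 were higher in replicate 2 under all 4 scalings, and mt-Co2 was lower under all 4, in the first quantification. For mt-Co3, mt-Atp6 and mt-Nd4l this did not hold with copies added to the genes. Their ratios were then -0.15, -0.11 and -0.089 with spike-in totals, and -0.028, 0.017 and 0.036 with total counts. A scaling shifts all genes alike, so the place of a member against the median of all tested genes is the same under each. In the first quantification the 17 tested members other than mt-Co2 stood above this median. In the second quantification the ratio of Gm10925 was -1.53 under TMM scaling. The 6 liver markers were all higher in replicate 2, and the 6 muscle, 6 cortex and 5 chromaffin markers were all lower. The brown adipocyte and erythroid lists held genes in both directions under TMM scaling. The part of these tissue differences in the members' ratios was not tested.

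Adding the counts of each chromosome 1 copy to its gene, which was also chosen after the values were seen, removed the exception. The TMM-scaled log2 ratio of mt-Co2 with Gm28661 was 0.22 (95% exact interval 0.21 to 0.23), from 254858 and 252110 counts. mt-Co3 went from 0.50 to 0.20, mt-Atp6 from 0.42 to 0.25, mt-Nd4l from 0.47 to 0.27 and mt-Co1 from 0.27 to 0.26. The 7 genes with copies then lay between 0.20 and 0.34. Of the mRNAs without a copy, mt-Nd1 was at 0.26, mt-Cytb at 0.27, mt-Nd6 at 0.32, mt-Nd2 at 0.35, mt-Atp8 at 0.40 and mt-Nd5 at 0.46.

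**Figure D4:**
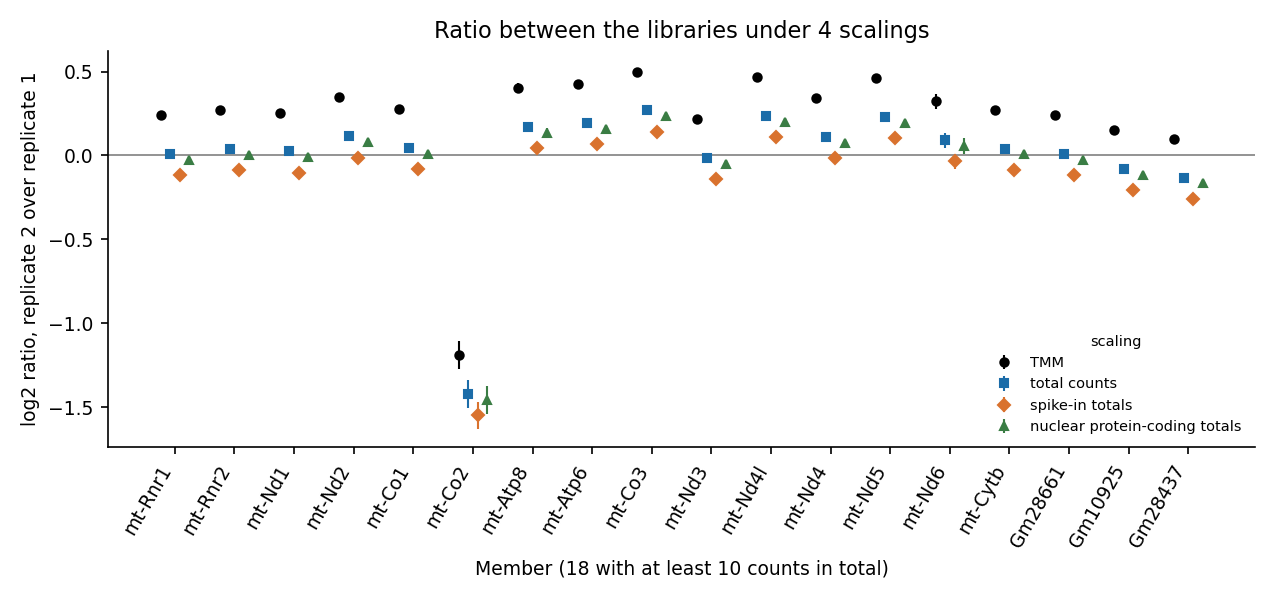
Log2 ratio of replicate 2 to replicate 1 for the 18 tested members, in genome order with the 3 copies last; symbols and colours mark 4 scalings of the library sizes, bars are 95% exact intervals of counting error, and the grey line is no difference. All members but mt-Co2 lie between 0.10 and 0.50 under TMM scaling, and mt-Co2 lies below -1 under each scaling.

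Nuclear genes that transcribe, process and stabilise mitochondrial RNA were measured as a list of 34 symbols, of which 33 were found and all 33 were detected. Their levels were far below those of the RNAs they act on, from 1.54 to 65.6 TPM. Under TMM scaling 4 were higher in replicate 2, 4 were lower and 25 passed in neither direction, with a median log2 ratio of -0.01, where 20.7% of all tested genes were higher and 18.4% lower with a median of -0.0047. With total counts 1 was higher and 21 lower, against 12.7% and 43% of all tested genes. With spike-in totals 0 were higher and 27 lower, against 10.8% and 53.3%. The list's median moved with that of all tested genes, to -0.24 and -0.37 against -0.24 and -0.36. The ratios that follow are under TMM scaling. Polrmt, Mterf3, Slirp, Trmt10c and Pnpt1, which did not pass there, were lower past the threshold with total counts, spike-in totals and nuclear protein-coding totals, under which the median of all tested genes was -0.24, -0.36 and -0.27.

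Of the transcription genes, Polrmt, the mitochondrial RNA polymerase, was at 23.9 and 19.8 TPM with a log2 ratio of -0.03, not past the threshold. Tfam, the factor that packages the genome and starts transcription, was at 16.5 and 17.9 TPM and was higher in replicate 2 at 0.17 (adjusted p = 0.040 by the exact binomial test), a call that was lost with no filter on low counts (adjusted p = 0.055 by the exact binomial test) and a direction that turned to -0.06 with total counts. The initiation factor Tfb2m, at 16.5 and 14.2 TPM, and the elongation factor Tefm, at 6.84 and 6.80 TPM, did not pass, with log2 ratios of 0.13 and 0.23. Mterf3, a member of the termination factor family, was at 18.9 and 13.9 TPM and -0.09, also not past the threshold.

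Of the genes acting on the transcripts, Lrpprc, which binds and stabilises mitochondrial mRNAs, was higher at 24.8 and 27.0 TPM, with a log2 ratio of 0.33 that turned to -0.03 with spike-in totals. Its partner Slirp was at 55.0 and 48.0 TPM with -0.01, and did not pass. Elac2, which cuts tRNAs at their 3′ ends, was lower at 18.2 and 12.6 TPM, with -0.26. Trmt10c, a subunit of the enzyme that cuts their 5′ ends, was at 6.13 and 4.74 TPM with -0.14, and Pnpt1, an exonuclease of mitochondrial RNA, at 15.2 and 12.04 TPM with -0.01, neither past the threshold. Past the threshold as well were, named after their values were seen, Hsd17b10 at 0.31 and Grsf1 at 0.12, both higher, and Ptcd1 and Fastkd5, both lower at -0.29. The highest ratio of the list was that of Polg2, a subunit of the DNA polymerase, at 0.35, which did not pass. The lowest was that of Mterf1a, the fourth lower gene, at -0.54 from 179 and 104 counts (adjusted p = 0.0075 by the exact binomial test). This call was lost in the second quantification, at -0.25 (adjusted p = 0.34 by the exact binomial test), and Mterf1a has a near-identical copy, Mterf1b, with which reads may be shared.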

How the data were processed

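Per the labels, total RNA of adrenal tissue was made into directional libraries, which were sequenced by the submitters. For each library a first quantification gave a gene and a transcript table and began with an alignment to the transcriptome; a second gave a transcript table and began with the reads and an index; both used mm10 and annotation M21, per the text files deposited with the samples. The names and versions of these tools were not given in the sources used here. Per the file headers, the authors' tables give expected counts (estimated counts in the second) and TPM per gene or transcript, the posterior mean and SD of each count, and the percent of a gene's TPM on each transcript. The other deposited columns, effective length among them, are in bases. In all 41 members 1 transcript made up the gene, and gene and transcript values agree within 0.01.

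The members and lists were chosen with earlier results of these data known. All members are named, with 12 machinery genes and the member of each marker list with the highest mean TPM. Identifiers were matched to the GENCODE M21 annotation, which matched all 55536. Spike-ins and 26249 entries without a gene name, the latter with 2.27e-05% and 1.91e-05% of counts, were left out of the test and its library sizes. Sequences were read from the M21 transcripts, and copy and gene were aligned with Biopython 1.88. Expected counts were rounded, genes with at least 10 counts in total were tested with the exact binomial distribution (two-sided, 2 times the lower of both tails; scipy 1.17.1), and library sizes were scaled by TMM in edgeR 4.0.16, with factors of 1.08 and 0.923. The procedure was tested on simulated data. Levels are the mean ± SD of 2 libraries. The depth was 35283841 and 35156690 expected counts, and intervals cover counting error only. Alternatives were the second quantification, other scalings, filters, a pseudocount of 1, each library alone and sums with copies.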

Additional observations from a re-analysis of the deposited data

How the results depend on the processing

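The mitochondrially encoded share of 16.5% became 27.3% of TPM in the second quantification, 17.4% of expected counts, 24.8% of TPM without the 7SL and 7SK RNAs, 5.41% for mRNAs only and 19.5% with the 4 copies; with 1 library at a time it was 16.2% to 16.8%. The count of detected genes was 14 in the second quantification and 15 under the other settings. The rRNA over mRNA difference of 1.04 (log2 of TPM) was 1.10 in the second quantification, 1.16 by counts per nucleotide, 0.41 with the 4 copies and 0.33 with all 7, and 1.00 to 1.08 with 1 library at a time. The median of second over first, 0.77, was 0.72 to 0.82 with 1 library at a time.

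The log2 ratio of copy to gene, 6.55 for Gm28661, 0.84 for Gm10925 and 1.52 for Gm28437, was 4.22, -4.86 and 1.48 in the second quantification and 2.76, 0.56 and 0.22 by posterior means, an alternative chosen after seeing the data. With 1 library at a time it was 5.84 to 7.27, 0.70 to 0.98 and 1.32 to 1.72.

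Members higher in replicate 2 numbered 17 under TMM, 13 with total counts, 9 with nuclear protein-coding totals, 5 with spike-in totals, and 0 at 1.5-fold or more. Members lower numbered 1 under TMM, 3, 6 and 11 in the same order of scalings, 2 in the second quantification and 0 with copies added, when mt-Co2 turned to 0.22. RLE size factors and no filter on low counts gave 17 and 1. Of the machinery list 4 were higher and 4 lower under TMM, 1 and 21 by total counts, 0 and 27 by spike-in totals, and 4 and 2 in the second quantification.

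Log2 ratios that changed sign with spike-in totals were -0.12 for mt-Rnr1, -0.090 for mt-Rnr2, -0.10 for mt-Nd1, -0.012 for mt-Nd2, -0.083 for mt-Co1, -0.14 for mt-Nd3, -0.016 for mt-Nd4, -0.035 for mt-Nd6, -0.085 for mt-Cytb, -0.21 for Gm10925, -0.26 for Gm28437, -0.12 for Gm28661, -0.19 for Tfam, -0.23 for Tfb2m, -0.13 for Tefm, -0.029 for Lrpprc and -0.0093 for Polg2. With nuclear protein-coding totals they were -0.026 for mt-Rnr1, -0.011 for mt-Nd1, -0.053 for mt-Nd3, -0.12 for Gm10925, -0.17 for Gm28437, -0.028 for Gm28661, -0.10 for Tfam, -0.14 for Tfb2m and -0.040 for Tefm. With total counts they were -0.018 for mt-Nd3, -0.082 for Gm10925, -0.13 for Gm28437, -0.063 for Tfam, -0.11 for Tfb2m and -0.0053 for Tefm. In the second quantification mt-Co2 kept its direction at -0.075 against -1.19, and ratios that changed sign were -1.53 for Gm10925, 0.025 for Slirp and 0.0021 for Pnpt1. These scalings move all genes by 1 amount, and the cause of the other differences was not tested.

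No paired analysis was possible because the study has 1 group. Leaving out a library leaves no comparison of libraries. Depth did not limit the detected members, whose lowest count was 1634; with 2 libraries of unequal tissue content, the spread between animals was hardly measured.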

Other observations

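By shared 31-base words, 23 nuclear genes matched a mitochondrial gene, 7 of them in that interval. Of the other 16, 3 reached 1 TPM in each library in the first quantification, where the highest value among them was 5.89 TPM, and 7 did so in the second, where the highest was 14.8 TPM. Gm13341 on chromosome 2, with 308 words in common with mt-Co2, was at 5.89 and 5.21 TPM in the first quantification and 5.06 and 4.60 in the second. Gm13340, its neighbour, with 685 words in common with mt-Co1, was at 2.51 and 2.88 TPM in the first and 14.8 and 12.2 in the second. The third, Cep295, a centrosomal protein gene on chromosome 9 with 4 words in common with mt-Ty, was at 3.85 and 3.91 TPM in the first and 5.80 and 5.66 in the second. Gm20594, with 42 words in common with mt-Rnr2, was listed at 0 in the first and at 10.1 and 9.14 TPM in the second. Gm11410, Gm11512 and Gm43743 were at 1.06 to 4.13 TPM in the second. These genes were chosen after their values were seen.

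Gm29216, with 2.81% private words, differs from mt-Co1 at 6 bases, all between T1056A and A1066T (positions counted from base 1 of mt-Co1, with the base of mt-Co1 first). The aligned stretch begins at base 1054, so all 6 lie near that end. Whether this end is a copy of mt-Co1 was not tested. Gm29216 was listed at 4420.3 and 4231 TPM in the first quantification and at 1980.4 and 1736 TPM in the second. Its posterior SDs were 369.7 and 363.7 counts on posterior means of 59361 and 56372. These SDs were below those of Gm28661, Gm10925, Gm28437 and Gm10222 and above those of the identical Gm28439, 8.56 and 7.52 counts. Gm28438 differs from mt-Nd3 by 1 base, T3C counted in the same way, and was listed at 0 in both quantifications.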
